A study of Mus musculus with 8 samples.

Results

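Open chromatin on mouse chromosome 15 was followed in 4 lines of the breast cancer model PB3 with ATAC-seq, an assay whose transposase inserts sequencing adapters into accessible DNA. Every region of the consensus table that lies on chromosome 15 was taken, which gave 2662 of 57417 regions, between base 3356924 and base 103627490 of the mm10 build. They were set beside the 53410 regions of the other 18 autosomes. The chromosome was chosen because its regions stood above those of the other autosomes in the paclitaxel and vinorelbine lines. The values of these lines against the parental line are therefore a description, and nothing is read from any threshold call on them. The eribulin line was not used for the choice, and its comparison was tested, but it shares the parental libraries with the comparisons that were used.

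PB3 cells carry the label Er-/Pr-/Her2-, and each line has 2 libraries. PB3-Parental was untreated. PB3-ERI-R was treated with eribulin (spelled "Erubilin" in the sample labels), PB3-PAC-R with paclitaxel and PB3-VIN-R with vinorelbine, and resistant clones were raised at 300, 500 and 800 nM of the drug. Whether a line is a single clone, whether drug was present at harvest, and whether the libraries of a line came from separate cultures is not given in the sources used here, so p-values measure the spread between these libraries, which may be technical. Paclitaxel stabilises microtubules, whereas eribulin and vinorelbine block their assembly.

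Mouse chromosome 15 carries the growth regulator Myc, the type II keratin cluster with Krt18 beside it, the Hoxc cluster, a group of alpha-tubulin genes, a stretch of classical cadherin genes and the Ly6 family of small membrane-anchored proteins. Accessible regions are mostly promoters, where transcription starts, and distal elements such as enhancers, which can act over long distances. The count over a region depends on how open its DNA is and on how many copies of that DNA the cells carry, and here these cannot be told apart.

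Total counts over all regions ran from 10521964 to 24052237 per library, and the counts on chromosome 15 from 435608 to 1201615. A region with 3 counts in a library corresponded to 0.114 to 0.332 CPM (counts scaled to a common library size after TMM normalization), and intervals and floors cover counting error only. Regions near all 6 mammary epithelial marker genes summed to 365 to 526 CPM in the parental, PAC and VIN libraries and to 895 and 778 CPM in PB3-ERI-R, and no measured marker locus was at 0 in a library. Outside PB3-ERI-R the epithelial sums were 511, 524 and 526 CPM in replicate 1 and 378, 387 and 365 CPM in replicate 2. Regions near all 4 mesenchymal marker genes summed to 401 to 478 CPM and, in PB3-ERI-R, to 215 and 213 CPM. Regions near 3 of 5 macrophage marker genes summed to 96.2 to 144 CPM against 14.1 and 16.6 CPM in PB3-ERI-R, and those near 3 of 4 endothelial genes to 132 to 156 CPM against 75.1 and 75.9 CPM. The part of these differences in the PB3-ERI-R results was not tested.

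The promoters of 6 genes are shown, since each overlaps a region that differed between PB3-ERI-R and the parental line. Of 936 RefSeq promoters on chromosome 15 (GRCm38.p6, 250 bases before to 50 after a gene start), 346 overlapped a region, which is 37.0%, against 38.1% on the other autosomes. Between Snhg18 (chr15:32244613-32244912) and Apol9a (chr15:77410985-77411284), however, only genes with names in Gm had such a promoter. None of the 346 belonged to Myc, Rad21 or Grhl2. Values of chromosome 15 promoters that overlap a region thus nearly leave out that stretch. Capitals mark matches on either strand to TGANTCA, the AP-1 motif, to GGGCGG, the GC box, or to CCAAT, the CCAAT box. The first 4 promoters lay in regions that were higher in PB3-ERI-R, and the last 2 in regions that were lower.
Osmr, minus strand, chr15:6874264-6874563, AP-1 and GC box: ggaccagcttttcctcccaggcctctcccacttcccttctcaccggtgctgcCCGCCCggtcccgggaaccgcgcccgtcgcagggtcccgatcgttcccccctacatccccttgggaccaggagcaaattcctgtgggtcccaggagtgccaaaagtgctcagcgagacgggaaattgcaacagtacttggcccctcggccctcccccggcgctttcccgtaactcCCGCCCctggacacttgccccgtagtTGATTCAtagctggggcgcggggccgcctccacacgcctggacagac
Capsl, plus strand, chr15:9435778-9436077, CCAAT box: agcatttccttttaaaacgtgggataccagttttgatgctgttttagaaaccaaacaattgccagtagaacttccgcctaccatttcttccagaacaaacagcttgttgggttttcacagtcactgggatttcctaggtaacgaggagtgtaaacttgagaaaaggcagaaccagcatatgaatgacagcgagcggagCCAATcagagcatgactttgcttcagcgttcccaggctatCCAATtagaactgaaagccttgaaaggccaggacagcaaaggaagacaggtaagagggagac
Aqp5, plus strand, chr15:99590778-99591077, GC box: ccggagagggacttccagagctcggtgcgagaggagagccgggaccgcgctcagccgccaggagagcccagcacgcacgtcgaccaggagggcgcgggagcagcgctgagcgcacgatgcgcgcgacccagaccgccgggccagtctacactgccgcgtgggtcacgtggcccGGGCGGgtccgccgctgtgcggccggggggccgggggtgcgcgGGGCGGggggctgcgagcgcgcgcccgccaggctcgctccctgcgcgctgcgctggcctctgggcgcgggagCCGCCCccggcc
Krt7, plus strand, chr15:101412153-101412452, GC box: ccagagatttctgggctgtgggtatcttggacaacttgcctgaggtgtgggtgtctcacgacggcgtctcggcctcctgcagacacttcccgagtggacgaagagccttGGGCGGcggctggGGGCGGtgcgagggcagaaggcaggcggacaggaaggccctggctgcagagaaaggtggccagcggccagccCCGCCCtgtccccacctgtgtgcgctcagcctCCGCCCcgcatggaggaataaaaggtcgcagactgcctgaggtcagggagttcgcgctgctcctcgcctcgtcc
Cdh6, minus strand, chr15:13173626-13173925, GC box: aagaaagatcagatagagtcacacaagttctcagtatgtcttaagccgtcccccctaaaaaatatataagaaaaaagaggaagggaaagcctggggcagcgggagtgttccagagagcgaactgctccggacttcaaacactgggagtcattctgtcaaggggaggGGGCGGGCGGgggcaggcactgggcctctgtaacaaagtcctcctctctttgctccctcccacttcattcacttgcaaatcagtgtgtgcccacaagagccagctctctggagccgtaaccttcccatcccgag
Hdac7, minus strand, chr15:97814814-97815113, AP-1: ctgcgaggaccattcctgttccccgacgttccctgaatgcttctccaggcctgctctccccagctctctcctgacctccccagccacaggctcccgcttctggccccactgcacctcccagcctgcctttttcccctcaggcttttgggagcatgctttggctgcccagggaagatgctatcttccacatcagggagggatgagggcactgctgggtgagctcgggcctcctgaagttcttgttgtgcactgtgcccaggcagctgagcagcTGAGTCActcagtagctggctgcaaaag

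Both GC boxes of the Cdh6 promoter overlap each other. The AP-1 motif was found in 7.7% of all chromosome 15 promoters (7.8% on the other autosomes), the GC box in 36.5% (36.0%) and the CCAAT box in 35.9% (37.3%). The TATA box TATAAA was found in 13.2% (13.6%), the E-box CACGTG in 6.9% (7.2%), the TEAD motif GGAATG in 13.5% (14.6%) and the Grainyhead motif AACNGGTT in 2.2% (2.1%). These matches describe the letters and are not binding sites.

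The promoter region of Krt7, a simple-epithelium keratin, had 7.64 and 5.72 CPM in the parental libraries, 60.6 and 37.2 CPM in PB3-ERI-R, 4.2 and 1.71 CPM in PB3-PAC-R and 11.6 and 6.16 CPM in PB3-VIN-R. Its log2 fold change in PB3-ERI-R was 2.87 ± 0.38 (SE), with an edgeR adjusted p of 8.12e-06. PB3-ERI-R lay above all other libraries, and both PB3-PAC-R libraries lay below the parental ones.

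The promoter region of Osmr, the oncostatin M receptor, had 14.7 and 19.5 CPM in the parental line and 73.4 and 54.7 CPM in PB3-ERI-R, a log2 fold change of 1.91 ± 0.23 with an edgeR adjusted p of 3.69e-06. In PB3-PAC-R it had 22.1 and 14.2 CPM, and in PB3-VIN-R 16.9 and 15.7 CPM, values that overlapped the parental ones. Summed over all regions in or near the gene, however, the Osmr locus had a log2 fold change of 0.54 in PB3-ERI-R and was not called.

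Cdh6 encodes a classical cadherin. Its promoter region had 12.2 and 8.39 CPM in the parental line and 0.557 and 1.33 CPM in PB3-ERI-R, a log2 fold change of -3.48 ± 0.46 with an edgeR adjusted p of 7.3e-06. PB3-VIN-R had 21.7 and 26 CPM, both above the parental libraries. PB3-PAC-R had 23.3 and 11.9 CPM, the latter just below the higher parental library.

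The Hdac7 promoter shown lies inside the gene, which encodes a class II histone deacetylase. Its region had 29.3 and 18.8 CPM in the parental line and 2.32 and 2.21 CPM in PB3-ERI-R, a log2 fold change of -3.4 ± 0.29 with an edgeR adjusted p of 1.11e-07. The region over the other annotated Hdac7 starts had 41.2 and 35.4 CPM in the parental line and 46.9 and 35.2 CPM in PB3-ERI-R, and did not pass (log2 fold change 0.1 ± 0.17, edgeR adjusted p = 0.607). A single gene thus held a lower and an overlapping promoter.

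On the chromosome as a whole, the paclitaxel and vinorelbine lines held more of their autosomal counts on chromosome 15 than the parental line, and the eribulin line held less. The share was 4.70% and 4.58% in the parental libraries, 5.71% and 5.10% in PB3-PAC-R, 5.07% and 4.97% in the PB3-VIN-R libraries and 4.36% and 4.24% in PB3-ERI-R. As means ± SD (n = 2) these were 4.64% ± 0.081, 5.41% ± 0.43, 5.02% ± 0.077 and 4.3% ± 0.085. No library of a resistant line fell between the parental libraries. The exact 95% binomial interval (Clopper-Pearson) was 4.686% to 4.707% for parental replicate 1 and as narrow for the other libraries, so counting error was smaller than the spread between libraries. For PB3-ERI-R, the only line here whose share may be tested, 2 libraries against 2 cannot give an exact permutation p below 0.333, two-sided.

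The shift of a library is the median over regions of log2(CPM + 0.5) minus the parental mean, less the same median over the other autosomes. It was 0.30 and 0.14 in PB3-PAC-R, 0.13 and 0.11 in the PB3-VIN-R libraries, -0.04 and -0.06 in PB3-ERI-R and 0.02 and -0.02 in the parental line. PB3-PAC-R and PB3-VIN-R libraries were all above both parental libraries. From the fitted log2 fold changes the shift was 0.24 in PB3-PAC-R, 0.13 in PB3-VIN-R and -0.06 in PB3-ERI-R.

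The PB3-PAC-R value depended on the library: it was 0.15 without PB3-PAC-R replicate 1 and 0.32 without replicate 2. Replicate 1 exceeded replicate 2 by a median of 0.15 on chromosome 15, against -0.09 to 0.02 on the other autosomes. Of the chromosome 15 regions, 69.2% were higher in PB3-PAC-R replicate 1, against 39.6% to 53.1% elsewhere. The cause of this gap was not tested.

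**Figure D1:**
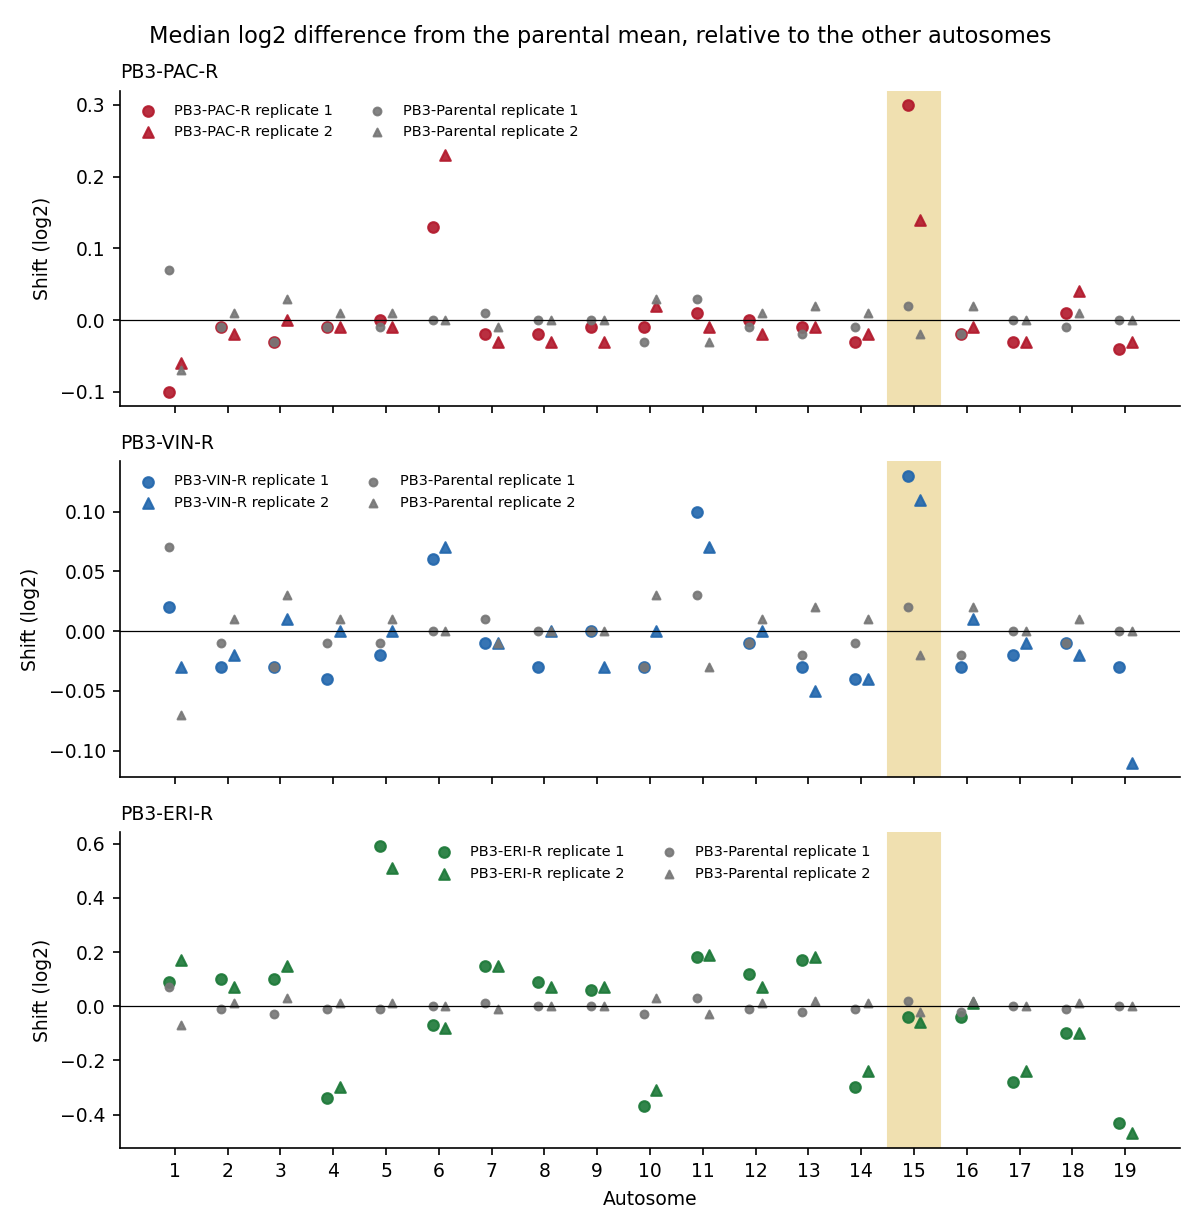
Shift of each autosome (x axis) relative to the others in log2 units (y axis, scales differ), 1 panel per resistant line, with the parental libraries in grey and chromosome 15 shaded. Chromosome 15 is highest in PB3-PAC-R replicate 1 (0.30) and in both PB3-VIN-R libraries (0.13 and 0.11), and sits at -0.04 and -0.06 in PB3-ERI-R.

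Set beside the other autosomes, the median region log2 fold change of chromosome 15 was the highest in PB3-PAC-R, at 0.22 against -0.09 to 0.18, with chromosome 6 next and the other 17 at 0.02 or below. It was also the highest in PB3-VIN-R, at 0.11 against -0.09 to 0.07, with chromosome 11 next. In PB3-ERI-R the median of 0.00 ranked at 12 of 19, between -0.37 on chromosome 19 and 0.56 on chromosome 5. Chromosome 6 shifted in PB3-PAC-R by 0.13 and 0.23, so replicate 2 had the larger shift there and replicate 1 on chromosome 15.

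The displacement showed at each percentile examined. In PB3-PAC-R the 10th, 25th, 75th and 90th percentiles of the log2 fold change were -0.09, 0.08, 0.36 and 0.57 on chromosome 15 and -0.38, -0.16, 0.13 and 0.33 on the other autosomes. In PB3-VIN-R they were -0.32, -0.07, 0.26 and 0.52 against -0.47, -0.20, 0.13 and 0.38. Regions with a log2 fold change above 0 made up 84.4% of chromosome 15 in PB3-PAC-R (46.9% elsewhere), 66.9% in PB3-VIN-R (46.4%) and 50% in PB3-ERI-R (51.5%).

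**Figure D2:**
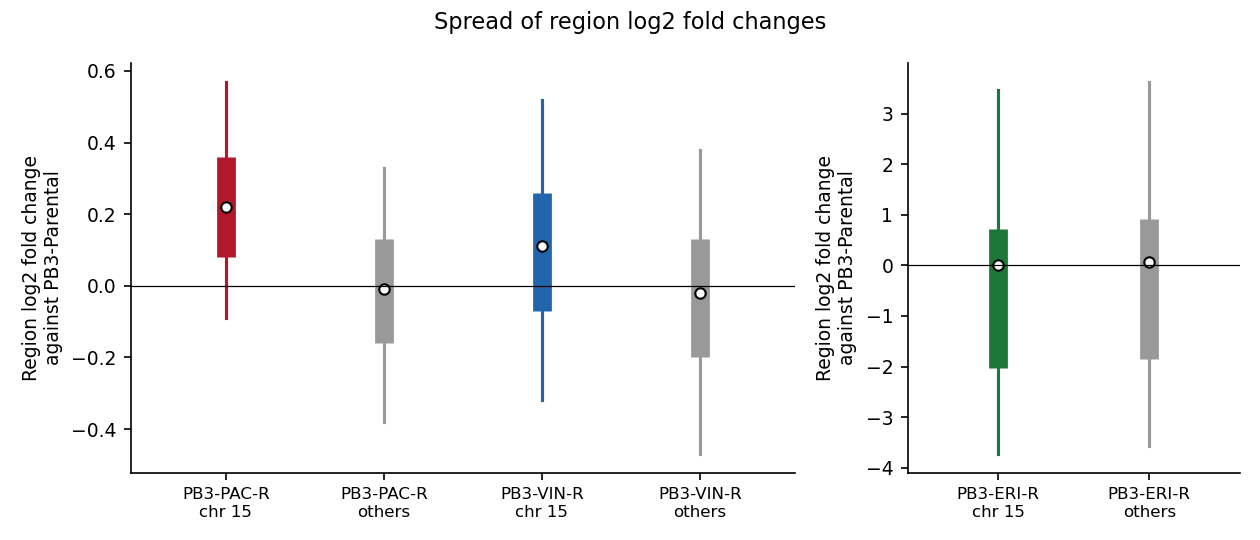
Region log2 fold change against PB3-Parental (y axis, scales differ) on chromosome 15 and the other autosomes for each line (x axis), with the median as a circle, the middle 50% as a box and the 10th to 90th percentiles as a line. Chromosome 15 is displaced upward in PB3-PAC-R (median 0.22 against -0.01) and PB3-VIN-R (0.11 against -0.02), and spans -3.73 to 3.46 in PB3-ERI-R.

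Both PB3-PAC-R libraries were above both parental libraries in 1128 regions of chromosome 15, which is 42.4% against 14.6% of all regions tested, and below both in 106, which is 3.98% against 16.1%. In PB3-VIN-R 747 regions were above (28.1% against 15.4%) and 305 below (11.5% against 19.4%). Since the chromosome was chosen on these lines, nothing is read from the excess. In PB3-ERI-R 1111 regions were above (41.7% against 44.3%) and 1167 below (43.8% against 42.2%).

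The shift was of like size in most classes of region. In PB3-PAC-R replicate 1 it was 0.32 within 1 kb of a gene end (540 regions) and 0.28 farther away (2122 regions), and in replicate 2 it was 0.14 in both. By abundance class (4 classes, at quantiles of all regions used) it ran from 0.25 to 0.30 and from 0.13 to 0.16, and by width class (3 classes) from 0.28 to 0.31 and from 0.14 to 0.15. In PB3-VIN-R the same classes ran from 0.12 to 0.16 in replicate 1 and from 0.08 to 0.15 in replicate 2. By this library shift, which uses a pseudocount, 406 regions that were a peak in PB3-ERI-R alone had 0.16 and 0.09 in PB3-PAC-R. Counts in the other lines are low there. By the fitted log2 fold changes this class did not stand apart. In PB3-PAC-R its median was 0.12 on chromosome 15 and -0.10 on the other autosomes (all regions: 0.22 and -0.01). In PB3-VIN-R these medians were -0.08 and -0.22 (all regions: 0.11 and -0.02). Chromosome 15 promoter regions in the lowest, middle and highest GC class (3 classes, at quantiles of all promoter regions used) had median log2 fold changes of 0.25, 0.23 and 0.24 in PB3-PAC-R and 0.14, 0.15 and 0.13 in PB3-VIN-R. Few of these promoter regions lie between Snhg18 and Apol9a, as described above.

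Apart from the shift, chromosome 15 resembled the other autosomes in the layout of its regions. It held 26.5 regions per Mb (23.3 elsewhere) with a median width of 472.5 bp (473.0 bp), and the share of regions at most 1 kb from a gene end was 20.3% (21.5%). Regions with no protein-coding gene within 50 kb made up 19.5% (15.7%). The deposited peak lists covered 71.9% of chromosome 15 regions in PB3-PAC-R (67.4% elsewhere), 80.4% in PB3-VIN-R (78.8%), 63.2% in PB3-Parental (64.9%) and 48.8% in PB3-ERI-R (52.4%). Of the regions, 329 were a peak in PB3-PAC-R and not in PB3-Parental (12.4% against 7.9% elsewhere), and 97 the reverse (3.6% against 5.4%). A peak in all 4 lines was listed for 797 regions and in every line but PB3-ERI-R for 770.

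Along the chromosome, regions were grouped into 21 windows of 5 Mb, of which 2 held fewer than 20 regions (15 to 20 Mb with 13, and 45 to 50 Mb with 18). In PB3-PAC-R the median log2 fold change was above 0 in all 21 windows. The highest were 0.42 at 45 to 50 Mb, 0.31 at 10 to 15 Mb and 0.31 at 40 to 45 Mb, and the lowest 0.13 at 0 to 5 Mb and 0.18 at 60 to 65 and 65 to 70 Mb. Among the 19 windows with 20 or more regions, the library shift ran from 0.21 to 0.36 in replicate 1 and from 0.08 to 0.31 in replicate 2, and replicate 1 was the higher in 18. Window shifts on the other autosomes ran from -0.24 to 0.25 and from -0.23 to 0.33 over 461 windows, with medians of -0.01 and 0.00.

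In PB3-VIN-R the windows were lower and less even. The highest medians were 0.28 at 15 to 20 Mb, 0.22 at 10 to 15 Mb and 0.17 at 90 to 95 Mb. The lowest were -0.01 at 60 to 65 Mb and 0.00 at 55 to 60 Mb, followed by 0.05 at both 25 to 30 and 65 to 70 Mb. The library shift was above 0 in 19 of 19 windows in replicate 1 (0.04 to 0.20) and in 16 of 19 in replicate 2 (-0.02 to 0.28). At 55 to 60 Mb the PB3-VIN-R libraries stood at 0.08 and -0.02 and the parental libraries at 0.03 and -0.03, so the lines overlapped. The median log2 difference of PB3-VIN-R from PB3-PAC-R was below 0 in all 21 windows, from -0.21 to -0.02, and was -0.11 over all regions.

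In PB3-ERI-R the windows varied far more. The highest medians were 0.40 at 5 to 10 Mb, 0.37 at 85 to 90 Mb and 0.27 at 100 to 105 Mb. The lowest were -4.52 at 15 to 20 Mb, -3.99 at 20 to 25 Mb and -3.28 at 45 to 50 Mb. Window shifts had an SD of 0.87 and 0.80 in the PB3-ERI-R libraries, against 0.044 and 0.06 in PB3-PAC-R and 0.051 and 0.082 in PB3-VIN-R. On the other autosomes the PB3-ERI-R SDs were 0.78 and 0.73.

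Summed over each window and tested with edgeR, 4 windows were higher in PB3-ERI-R and 9 lower, against 34.9% higher and 34.3% lower of 536 windows of all chromosomes. With the region factors in place of the window factors, 12 were higher and 4 lower. The share of all windows under the region factors is not given, so nothing is read from that split. With the window factors, the windows higher were 0 to 5, 5 to 10, 10 to 15 and 35 to 40 Mb. Their log2 fold changes were 0.35 ± 0.07, 0.23 ± 0.06, 0.24 ± 0.05 and 0.29 ± 0.07. Those lower included 45 to 50 Mb, which fell from 110 and 117 CPM to 9.47 and 14.3 CPM (log2 fold change -3.27 ± 0.16, edgeR adjusted p = 1.27e-08). The window at 20 to 25 Mb fell from 257 and 311 CPM to 26.9 and 46.7 CPM (-2.96 ± 0.19, edgeR adjusted p = 1.33e-07).

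**Figure D3:**
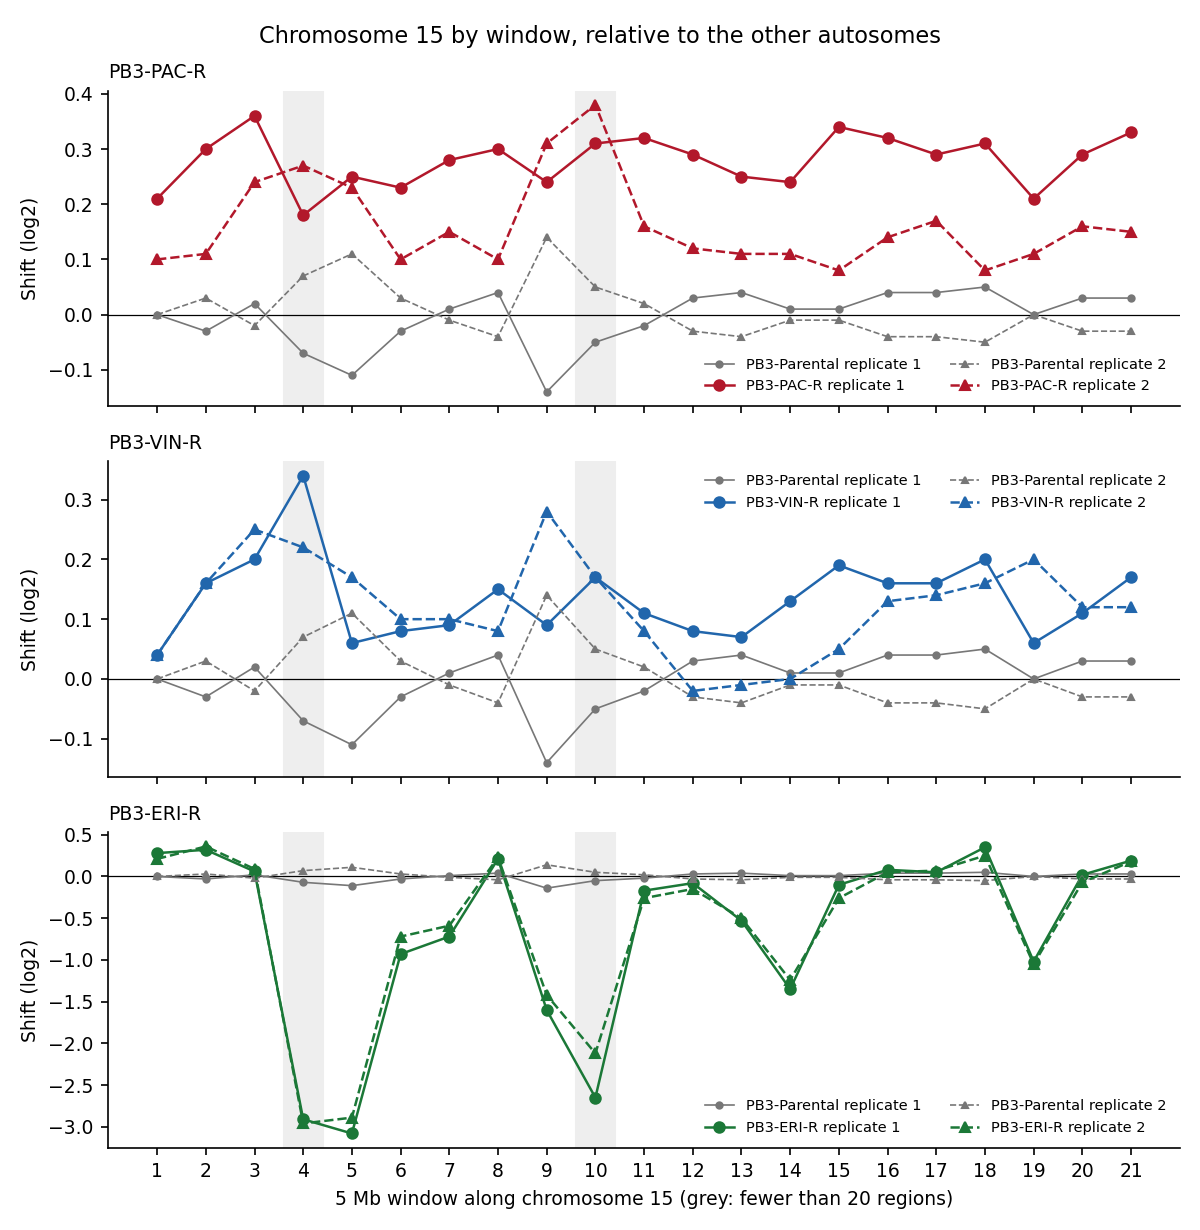
Library shift in log2 units (y axis, scales differ) in the 21 windows of chromosome 15 in order (x axis), 1 panel per resistant line with the parental libraries in grey. PB3-PAC-R lies at 0.08 to 0.36 in the windows with 20 or more regions, PB3-VIN-R at -0.02 to 0.28, and PB3-ERI-R drops to -3.08 in the fifth window.

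Single regions of chromosome 15 changed in PB3-ERI-R about as often as regions elsewhere. The edgeR test called 1881 of 2662 regions (70.7%, against 73% of the 57415 regions tested). Of these, 848 were higher (31.9% against 35.4%) and 1033 lower (38.8% against 37.6%). With no scaling factor the split was 595 higher and 1187 lower. All 2662 regions passed the filter on low counts. The chromosome was chosen on the other lines, so their counts only describe which regions are listed further on and nothing is read from them. PB3-PAC-R had 5 regions past the threshold, all higher (background 0.0314% higher and 0.054% lower), and PB3-VIN-R had 17, of which 15 were higher and 2 lower (background 0.678% in either direction).

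Changed regions stood in runs, that is, neighbouring regions called in 1 direction with no other between them. The longest run higher in PB3-ERI-R held 18 regions across Osmr, Lifr and Egflam (chr15:6873886-7382873), whose summed counts were 634 and 720 in the parental libraries and 6234 and 4264 in PB3-ERI-R. The next held 13 regions at Grhl2 (chr15:37019548-37234739), with 557 and 537 parental counts and 5900 and 4413 in PB3-ERI-R. A run of 12 regions covered Celsr1 and Gramd4. The Osmr locus as a whole was not called, as given above. Lifr is the leukaemia inhibitory factor receptor, and Grhl2 a Grainyhead factor that maintains epithelial genes.

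The longest run lower in PB3-ERI-R held 21 regions over 1273.0 kb at Fam135b and Col22a1, a collagen gene, with 4340 and 4082 parental counts and 595 and 628 in PB3-ERI-R. A run of 14 lay in and near Ctnnd2, which encodes a delta-catenin, with 2547 and 2903 against 167 and 215 counts. Summed over all its regions, however, the Ctnnd2 locus had a log2 fold change of 0.09 in PB3-ERI-R and was not called. Outside the run, a region inside the gene (chr15:30341758-30342327) had 2 and 5 parental counts and 241 and 139 in PB3-ERI-R. It was named for PB3-PAC-R and passed the minimum average log2 CPM of 2 only through PB3-ERI-R. Its high PB3-ERI-R counts are thus set by the selection, and nothing is read from them for the locus value. A run of 13 spanned the cadherin genes Cdh12 and Cdh18 over 3122.5 kb, with 1631 and 1813 against 64 and 87 counts. In these 3 lower runs the median log2 fold changes of PB3-PAC-R were 0.20, 0.28 and 0.34, and those of PB3-VIN-R 0.16, 0.08 and 0.36.

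Of the 5 regions named as higher in PB3-ERI-R, one lay 30.1 kb from Prlr, the prolactin receptor (chr15:10146644-10147094). It had 0 and 2 counts in the parental libraries and 428 and 358 in PB3-ERI-R, a ratio of 628 after scaling (exact 95% counting interval 173 to 5195). A region inside Celsr1, a planar-polarity cadherin, had 1 and 2 parental counts and 424 and 348 in PB3-ERI-R (ratio 411, interval 140 to 1998). Inside Efcab6 counts were 3 and 4 against 621 and 361, and the log2 fold change was 7.74 ± 0.38 (edgeR adjusted p = 1.68e-09). At these places the parental line was at or near the floor of 3 counts, so the size of the gain is poorly bounded.

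In a region near Lifr counts were 2 and 1 in the parental line and 268 and 293 in PB3-ERI-R (ratio 299, interval 102 to 1453). Inside Scube1, which encodes a secreted and surface EGF-domain protein, they were 1 and 0 against 270 and 152 (ratio 674, interval 120 to 26698). PB3-PAC-R and PB3-VIN-R libraries had 0 to 12 counts in the regions at Prlr, Celsr1, Lifr, Scube1 and Efcab6. With so few counts outside PB3-ERI-R, these regions reached the minimum average log2 CPM only through PB3-ERI-R. They were also named for the largest fold changes. Their high PB3-ERI-R counts are thus set by the selection, and nothing is read from the low counts of the other lines there.

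Losses in PB3-ERI-R reached the floor as well. A region inside Rims2, a synaptic active-zone gene, had 102 and 116 counts in the parental libraries and none in PB3-ERI-R, so it was at least 45.5-fold lower against a floor of 3 counts over both libraries. Inside Atxn10 counts were 134 and 68 against 0 and 1 (parental over PB3-ERI-R 126, interval 22.4 to 5017). Inside Pced1b they were 182 and 168 against 0 and 2 (110, interval 30.1 to 908). In PB3-PAC-R and PB3-VIN-R the same regions held 88 to 320 counts per library.

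Inside Nckap1l, a WAVE-complex gene of blood cells, counts were 134 and 205 against 3 and 0 (70.7, interval 24 to 345). Inside Marchf11, which encodes a membrane ubiquitin ligase, they were 283 and 218 against 1 and 3, and the log2 fold change was -6.23 ± 0.45 (edgeR adjusted p = 2.13e-08).

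In PB3-PAC-R the largest changes of single regions were modest beside these, and they are given as values. A region inside Ext1, a heparan sulfate polymerase gene, had 52 and 30 counts in the parental line and 205 and 281 in PB3-PAC-R (log2 fold change 2.63 ± 0.31). PB3-ERI-R had 117 and 84 counts there and PB3-VIN-R 188 and 137, so all resistant libraries were above the parental ones. Regions inside Endou, which encodes an endoribonuclease, and inside Arfgap3, a regulator of Golgi traffic, were higher in both lines.

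At Endou (chr15:97727056-97727365) CPM was 3.55 and 1.93 in the parental line, 11.8 and 11.8 in PB3-PAC-R, 13.5 and 15.6 in the PB3-VIN-R libraries and 6.32 and 3.88 in PB3-ERI-R. The neighbouring region (chr15:97728195-97729496) had 19.4 and 13.1 CPM in the parental line, 41 and 52.9 in PB3-PAC-R, 50.4 and 60.6 in the PB3-VIN-R libraries and 7.15 and 7.75 in PB3-ERI-R. PB3-PAC-R and PB3-VIN-R thus lay above the parental line in both regions, and PB3-ERI-R above it in the first and below it in the second. At Arfgap3 (chr15:83305201-83305986) the parental line had 5 and 4.92 CPM, PB3-PAC-R 15 and 14.7, PB3-VIN-R 17.5 and 19.3 and PB3-ERI-R 7.43 and 5.2.

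The 5 regions called in PB3-PAC-R were those at Ext1 and Arfgap3, both at Endou, and 1 with no gene within 50 kb (chr15:69852031-69852335). The last had 11 and 6 counts in the parental line, 60 and 72 in PB3-PAC-R, 120 and 133 in the PB3-VIN-R libraries and 4 and 4 in PB3-ERI-R. The neighbouring Endou region, this region and the other called features outside the naming rule were chosen after their values were seen.

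Of the 10 regions that the naming rule gave for PB3-PAC-R, only those at Ext1, Endou and Dpys had a mean CPM over the 6 libraries outside PB3-ERI-R that reached the abundance minimum. The other 7 passed it through the PB3-ERI-R counts, so their PB3-ERI-R values are high by selection. The regions at Scube1, Celsr1 and Lifr had 5, 11 and 10 counts over both PB3-PAC-R libraries against 1, 3 and 3 in the parental line (ratios 5.14, 3.77 and 3.42, with intervals of 0.575 to 243, 0.995 to 21 and 0.882 to 19.4). All 3 intervals include 1. The lower ones include regions inside Ctnnd2 and near the olfactory receptor gene Olfr284, each with 2 counts against 7 (ratio 0.293, interval 0.0297 to 1.54).

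The lower region inside Dpys, which encodes the pyrimidine-degrading enzyme dihydropyrimidinase, had 252 and 81 counts in the parental line, 41 and 39 in PB3-PAC-R, 183 and 162 in the PB3-VIN-R libraries and 5 and 4 in PB3-ERI-R (PB3-PAC-R log2 fold change -1.99 ± 0.40). The parental libraries themselves stood at 15.2 and 5.39 CPM. The rest of the lower ones passed the minimum through PB3-ERI-R. A region near Myh9, the non-muscle myosin heavy chain gene, had 20 and 28 parental counts, 5 and 8 in PB3-PAC-R, 10 and 7 in the PB3-VIN-R libraries and 661 and 610 in PB3-ERI-R. Near Trib1, a pseudokinase gene, counts were 9 and 14 against 6 and 2 in PB3-PAC-R and 939 and 562 in PB3-ERI-R.

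Of the 15 higher regions called in PB3-VIN-R, 4 lay between bases 8759063 and 8854758, the first of them within 50 kb of Slc1a3, a glutamate and aspartate transporter gene. The one at chr15:8850988-8851509 had 4.7 and 2.4 CPM in the parental line, 17.7 and 15.6 in PB3-VIN-R, 12.7 and 7.87 in PB3-PAC-R and 36.5 and 39.2 in PB3-ERI-R. All resistant libraries lay above the parental ones in that region.

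Further along, a region inside Ugt3a2, a glycosyltransferase gene, had 12 and 2 counts in the parental line and 104 and 156 in PB3-VIN-R (log2 fold change 3.55 ± 0.48). Of the 10 regions named for PB3-VIN-R, 5 reached the abundance minimum without PB3-ERI-R, and those at Capsl, Celsr1, Myh9, Mtss1 and Aqp5 did not. The Capsl promoter region shown above had 0.602 and 0.399 CPM in the parental line, 1.95 and 2.7 in PB3-VIN-R and 60 and 60.5 in PB3-ERI-R. Inside Tmem117 CPM was 3.61 and 2.06 in the parental line, 8.16 and 8.03 in PB3-VIN-R and 0.557 and 0.443 in PB3-ERI-R, so these lines lay on opposite sides of the parental one. The region named at Celsr1 had 20 counts over both PB3-VIN-R libraries against 3 (ratio 4.2, interval 1.24 to 22.1).

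The lower PB3-VIN-R regions included a gene end of Ccdc166, with 22 and 22 CPM in the parental line, 9.38 and 7.45 in PB3-VIN-R, 14.4 and 11.9 in PB3-PAC-R and 0.836 and 1.44 in PB3-ERI-R. At Baalc CPM was 7.52 and 8.19 against 4.27 and 1.75 in PB3-VIN-R and 1.02 and 1.22 in PB3-ERI-R. At both genes every resistant library was below the parental ones.

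Aqp5 encodes a water channel, and the region at its promoter shown above had 16 and 16 counts in the parental line, 14 and 6 in PB3-VIN-R and 322 and 183 in PB3-ERI-R. Inside Mtss1, an actin and membrane-bending gene, counts were 25 and 25 against 12 and 18 in PB3-VIN-R and 1137 and 850 in PB3-ERI-R. Since PB3-ERI-R carried these regions over the minimum, its high counts there are set by the selection.

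Counts were next summed over the regions inside each protein-coding gene or up to 50 kb from it, which gave 620 tested loci on the chromosome. A locus value is accessibility in and near a gene, not its expression. In PB3-ERI-R the edgeR test called 145 loci higher (23.4%, against 28% of 14936 loci) and 167 lower (26.9% against 30.3%), where 58.3% of all loci were called in either direction. With the scaling factors of the region table the split was 237 higher and 128 lower, and the 39 named loci moved by a median of 0.28. The share of all loci under these factors is not given, so nothing is read from that split. The median locus log2 fold change was 0.23 in PB3-PAC-R (all loci -0.02), 0.12 in PB3-VIN-R (-0.01) and -0.04 in PB3-ERI-R (0.00). Loci above 0 were 570 of 620 in PB3-PAC-R (91.9%, against 43.3% of all loci), 509 in PB3-VIN-R (82.1%, against 47.7%) and 285 in PB3-ERI-R (46.0%, against 49.7%).

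The chromosome's genes were further grouped into 13 lists with 155 measured genes, described by counts and medians. For every list, the PB3-ERI-R counts stand beside 28% higher and 30.3% lower over all loci. Counts above 0 stand beside 91.9% (PB3-PAC-R) and 82.1% (PB3-VIN-R) of the chromosome's loci. Nothing is read from list counts near these shares. Near-identical gene copies, such as those of the keratin, Ly6, alpha-tubulin and Csf2rb families, are uncertain, since the handling of reads with more than 1 match is not given in the sources used here.

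Of 19 measured genes around Myc and in growth control, 6 were higher and 4 lower in PB3-ERI-R, with a median of -0.15. Myc, a transcription factor that drives growth, had 210 and 163 CPM in the parental line, 161 and 144 in PB3-ERI-R, 205 and 190 in PB3-PAC-R and 181 and 172 in PB3-VIN-R. PB3-ERI-R lay below the parental line by little (log2 fold change -0.29 ± 0.13, edgeR adjusted p = 0.0738), and the other lines overlapped it. Without PB3-Parental replicate 2 the value was -0.46. With the scaling factors of the region table the named loci, Myc among them, moved up by 0.27 to 0.29.

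Within this Myc locus, however, single regions went both ways in PB3-ERI-R. The region 8468 bases from the gene had a log2 fold change of -2.95 ± 0.29 and one 38029 bases away -1.98 ± 0.25, whereas those inside the gene were at 0.08 ± 0.21 and 0.03 ± 0.23. In total 3 of the 10 regions were called higher and 3 lower. Over all regions tested, 35.4% were higher and 37.6% lower, so nothing is read from these counts.

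Rad21, a cohesin subunit gene, had 0.86 and 1.4 CPM in the parental line and 72.4 and 54.2 in PB3-ERI-R (log2 fold change 5.81 ± 0.32, edgeR adjusted p = 1.82e-07). Only 2 regions make up this locus. Adcy8, an adenylyl cyclase gene, fell from 34.3 and 35.7 CPM to 8.41 and 5.96 in PB3-ERI-R. Eif3h, a translation initiation factor gene, fell from 112 and 106 CPM to 52.9 and 51.6. In PB3-PAC-R 17 of the 19 were above 0 (median 0.23) and in PB3-VIN-R 13 (median 0.09).

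Among 16 measured keratins 5 were higher in PB3-ERI-R and 2 lower, with a median of 0.07. The higher ones included Krt5, a basal-layer keratin, with 3.58 and 2.71 CPM in the parental line, 39.2 and 30.1 in PB3-ERI-R, 6.77 and 5.36 in PB3-PAC-R and 6.48 and 5.98 in PB3-VIN-R (PB3-ERI-R log2 fold change 3.45 ± 0.26, edgeR adjusted p = 1.03e-06). All resistant libraries were above the parental ones at Krt5. Krt6a, a keratin of stressed epithelium, had 1.58 and 1.86 CPM in the parental line and 82.5 and 73.3 in PB3-ERI-R (5.50 ± 0.29), and Krt75 0.716 and 1.01 against 25 and 20.8 (4.73 ± 0.36).

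The simple-epithelium pair Krt8 and Krt18 did not pass, with values of 0.19 ± 0.28 (edgeR adjusted p = 0.591) and -0.23 ± 0.23 (edgeR adjusted p = 0.426). Their sign changed when a single parental library was left out. Krt8 had 189 and 120 CPM in the parental line and 197 and 155 in PB3-ERI-R, a spread between parental libraries as large as the difference. In the Krt8 promoter region replicate 1 was above replicate 2 in every line, with 26.3 and 8.52 CPM in the parental line. PB3-PAC-R had 30.2 and 8.56 CPM there, PB3-VIN-R 28.2 and 10.2 and PB3-ERI-R 44 and 29.2. With the replicate number as a block, the Krt8 locus had 0.22 (edgeR adjusted p = 0.0517). Over the list, 14 keratins were above 0 in PB3-PAC-R (median 0.38) and 16 in PB3-VIN-R (median 0.33).

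The Hoxc cluster, which patterns the posterior body, had a single measured member, Hoxc8, with 4.3 and 5.51 CPM in the parental line and 4.74 and 4.12 in PB3-ERI-R (log2 fold change -0.14 ± 0.31, edgeR adjusted p = 0.722), a sign that turned with the scaling factors of the region table.

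Of 11 genes of alpha tubulins and mitosis, 1 was higher (Gtse1, 0.36) and 3 lower in PB3-ERI-R, with a median of -0.17. Tuba1b, an alpha-tubulin gene, had 149 and 158 CPM in the parental line, 99.6 and 120 in PB3-ERI-R, 179 and 182 in PB3-PAC-R and 169 and 158 in PB3-VIN-R (PB3-ERI-R log2 fold change -0.48 ± 0.11, edgeR adjusted p = 0.00325). With only the regions inside each gene, and scaling factors computed from these, the value was 0.01 (edgeR adjusted p = 0.954). Both the regions and the scaling differ there, so this does not settle where the difference lay. The locus of Kif21a, a kinesin gene, fell from 97.5 and 80.1 to 52 and 47.3 CPM. It had 116 and 106 CPM in PB3-PAC-R and 118 and 123 in PB3-VIN-R. The Kif21a promoter region went the other way, from 25.3 and 26 CPM in the parental line to 81 and 69.2 CPM in PB3-ERI-R. There the log2 fold change was 1.55 ± 0.21, with an edgeR adjusted p of 1.12e-05. Racgap1, a cytokinesis gene, had 41 and 37.1 CPM in the parental line and 25.8 and 30.2 in PB3-ERI-R, a fall of 0.48 ± 0.13. Neither Tuba1b nor Racgap1 was called with the scaling factors of the region table (edgeR adjusted p = 0.13 and 0.271).

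In PB3-PAC-R all 11 genes of this list were above 0, from 0.12 to 0.32, and in PB3-VIN-R 10 were, from -0.04 to 0.44. The medians of 0.24 and 0.15 stood beside 0.23 and 0.12 over all chromosome 15 loci.

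Cadherins and their junction partners were lower in PB3-ERI-R at 5 of 10 measured genes and higher at 2, with a median of -1.27. Over all loci 30.3% were lower and 28% higher. Cdh6 fell from 47.5 and 36.7 CPM to 1.16 and 2.17 (log2 fold change -4.69 ± 0.28, edgeR adjusted p = 2.61e-07), and had 79.3 and 58.8 CPM in PB3-PAC-R and 77.6 and 77.8 in PB3-VIN-R. Cdh12 fell from 43.6 and 55.4 to 4.11 and 4.88 CPM (-3.47 ± 0.20). Parvb, an actin-linking partner of integrin-linked kinase, fell from 135 and 106 to 5.63 and 6.5 CPM (-4.31 ± 0.25). At Cdh12 and Parvb the PB3-PAC-R and PB3-VIN-R libraries overlapped the parental ones in part, and at Cdh6 both lines were above the parental line.

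The Ly6 family had 5 of 8 measured members higher in PB3-ERI-R and 1 lower, with a median of 1.33. Ly6d had 3.01 and 3.26 CPM in the parental line and 48.9 and 38.7 in PB3-ERI-R (3.80 ± 0.34). Gpihbp1, which anchors lipoprotein lipase on capillaries, had 0.573 and 0.698 against 7.96 and 6.72 CPM (3.52 ± 0.36). Ly6a, also known as Sca-1 and used as a stem-cell marker, went the other way, from 6.88 and 6.2 to 1.16 and 0.434 CPM (-2.97 ± 0.39).

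Among 18 measured surface and nuclear receptors, 8 were higher in PB3-ERI-R and 6 lower, with a median of 0.32. The Prlr locus rose from 1.22 and 1.16 to 144 and 137 CPM (6.87 ± 0.19, edgeR adjusted p = 1.31e-08), with all 5 of its regions called higher. The Lifr locus rose from 12.3 and 16.8 to 278 and 240 CPM (4.16 ± 0.17), and had 12.5 and 9.69 CPM in PB3-PAC-R and 9.89 and 9.93 in PB3-VIN-R, the latter below the parental line. Csf2rb2, a cytokine receptor subunit gene, fell from 33.7 and 33.7 to 3.94 and 4.66 CPM (-2.98 ± 0.25).

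Secreted ligands had 1 of 12 measured genes higher (Wnt1, 0.57) and 5 lower in PB3-ERI-R, with a median of -0.38. Igfbp6, an IGF-binding protein, fell from 54.5 and 53 to 5.99 and 6.18 CPM (-3.14 ± 0.13, edgeR adjusted p = 4.12e-08), and had 76.7 and 74.6 CPM in PB3-PAC-R and 61.5 and 61 in PB3-VIN-R. Wnt10b, a Wnt ligand, fell from 47.5 and 38.1 to 5.1 and 5.85 CPM (-2.97 ± 0.20). Ccn3, a matricellular protein, fell from 38.4 and 35.1 to 9.75 and 11.6 CPM (-1.79 ± 0.16). At Igfbp6 and Ccn3 the other resistant lines lay above the parental line, so the lines were on opposite sides of it.

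Of 10 extracellular matrix genes 2 were higher and 5 lower in PB3-ERI-R, with a median of -0.71. Col2a1, the cartilage collagen gene, had 3.3 and 2.71 CPM in the parental line and 91.1 and 52.2 in PB3-ERI-R (4.57 ± 0.35), and Egflam 8.31 and 9 against 77.7 and 58.2 (2.97 ± 0.20). Has2, the hyaluronan synthase gene, fell from 301 and 295 to 110 and 96.3 CPM (-1.53 ± 0.15). In PB3-PAC-R 7 of the 10 were above 0 and in PB3-VIN-R 6.

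Chromatin regulators were lower at 3 of 12 genes in PB3-ERI-R and higher at 0, with a median of -0.01. Arid2, a subunit of a SWI/SNF remodelling complex, fell from 50.9 and 61.3 to 6.35 and 5.74 CPM (-3.21 ± 0.15, edgeR adjusted p = 9.54e-08), with all 4 of its regions called lower. Trps1, a GATA-type repressor, fell from 188 and 220 to 127 and 120 CPM (-0.72 ± 0.11). The Hdac7 locus, whose promoters are described above, was at 173 and 132 CPM in the parental line and 106 and 77.3 in PB3-ERI-R (-0.73 ± 0.20).

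Transcription factors were higher at 5 of 20 genes and lower at 4, with a median of 0.01. The Grhl2 locus rose from 23.6 and 18.1 to 299 and 270 CPM (3.77 ± 0.19, edgeR adjusted p = 1.11e-07), with 9 of 11 regions higher and 2 lower. Dbx2, a homeobox gene, fell from 8.02 and 9.07 to 0.447 and 0.759 CPM (-3.84 ± 0.36), and Zfpm2, a GATA cofactor, from 122 and 149 to 28.6 and 31.2 CPM (-2.18 ± 0.13). In both PB3-PAC-R and PB3-VIN-R all 20 were above 0, as were 91.9% and 82.1% of the chromosome's loci.

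Of 7 measured genes of cell death and DNA repair, 3 were higher and 1 lower (Smug1, -0.39) in PB3-ERI-R, with a median of 0.39. Bik, a pro-apoptotic BH3-only gene, rose from 8.74 and 11 to 73.1 and 64.7 CPM (2.80 ± 0.20), while in PB3-VIN-R it had 6.48 and 5.56 CPM, below the parental line. Rrm2b, a ribonucleotide reductase subunit gene, rose by 0.39 ± 0.10, and Irak4, an innate immune kinase gene, by 0.41 ± 0.12.

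Genes of translation and RNA binding were lower at 4 of 12 and higher at 0 in PB3-ERI-R, with a median of -0.12. Pabpc1, the poly(A)-binding protein gene, fell from 122 and 129 to 69.8 and 87.2 CPM (-0.68 ± 0.14), and Eif3l from 34.5 and 41.6 to 29 and 28.3 CPM (-0.41 ± 0.13, edgeR adjusted p = 0.0224), a call lost with the scaling factors of the region table (-0.13, adjusted p = 0.494). All 12 were above 0 in PB3-PAC-R (0.14 to 0.36) and in PB3-VIN-R (0.01 to 0.26), as were 91.9% and 82.1% of the chromosome's loci.

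**Figure D4:**
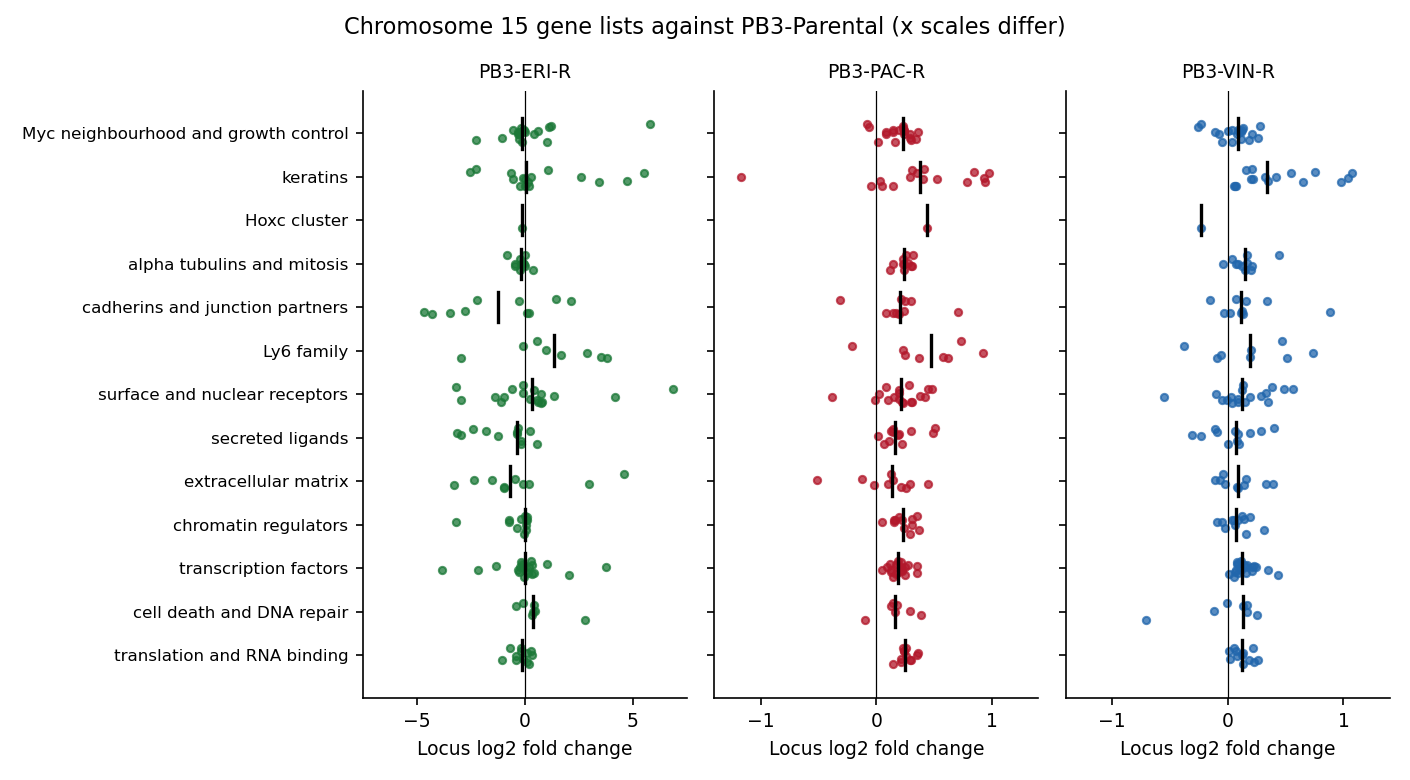
Locus log2 fold change against PB3-Parental (x axis, scales differ) for the measured genes of 13 chromosome 15 lists (y axis), 1 panel per resistant line, with each gene as a point and the list median as a bar. PB3-ERI-R loci spread from -4.69 to 6.87, while list medians lie at 0.14 to 0.47 in PB3-PAC-R and at -0.23 to 0.33 in PB3-VIN-R.

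**Figure D5:**
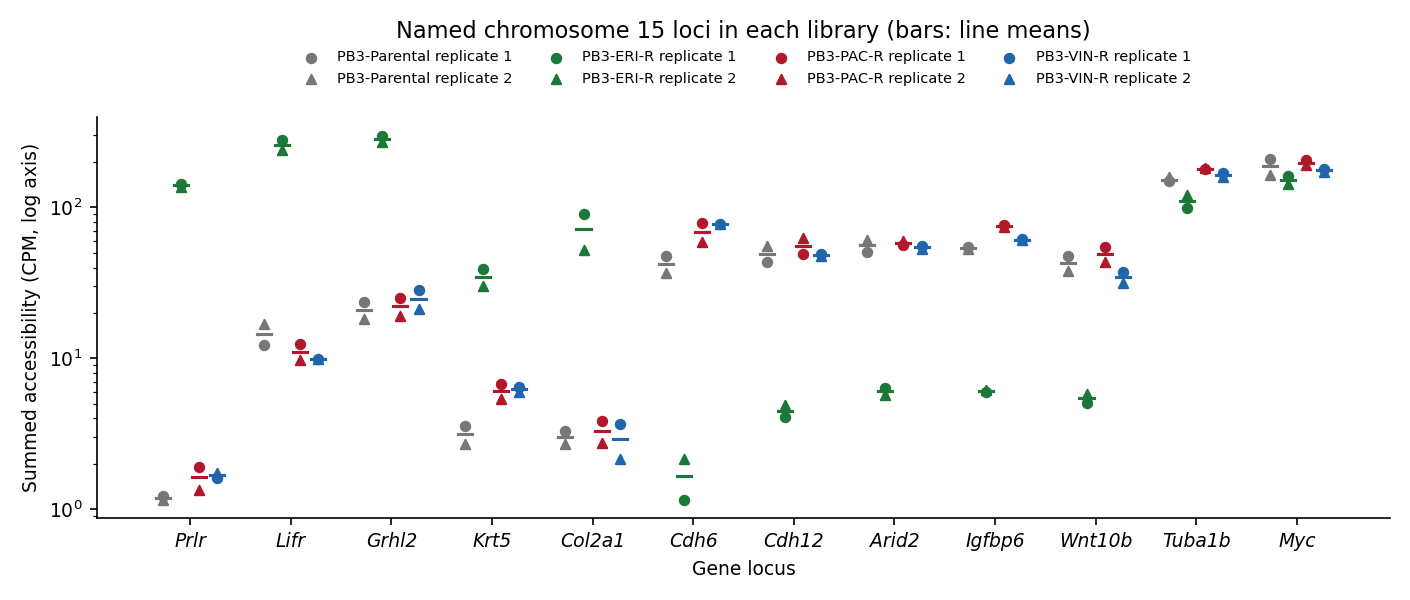
Summed accessibility in CPM (y axis, log scale) at 12 chromosome 15 loci (x axis) in each library, coloured by line, with bars at the line means of 2 libraries. PB3-ERI-R stands above the other lines at Prlr, Lifr, Grhl2, Krt5 and Col2a1 and below them at Cdh6, Cdh12, Arid2, Igfbp6, Wnt10b and Tuba1b.

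The list medians of PB3-PAC-R (0.14 to 0.47) and PB3-VIN-R (0.07 to 0.33, with the single Hoxc gene at -0.23) thus spread around the locus medians of the chromosome, 0.23 and 0.12. The highest PB3-PAC-R median was that of the Ly6 family and the highest PB3-VIN-R median that of the keratins.

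Promoter regions of the chromosome were sorted by the PB3-ERI-R call as well. Few of them lie between Snhg18 and Apol9a, so that stretch is hardly covered. Of the promoter regions, 110 were higher, 30 lower and 137 not called. The split by direction on the other autosomes is not given, so nothing is read from it. In the lowest, middle and highest GC class the median PB3-ERI-R log2 fold changes were 0.22, 0.32 and 0.3. On the other autosomes these medians were 0.37, 0.36 and 0.35, so they were positive there as well. The median GC content of the higher, lower and uncalled promoter regions was 64.3%, 60.5% and 62.3%. Their median number of CpG pairs was 23.0, 12.5 and 23.0. The AP-1 motif TGANTCA, as printed in capitals for Osmr and Hdac7, was in 5 of the 110 (4.5%), 7 of the 30 (23.3%) and 9 of the 137 (6.6%), against 7.8% of chromosome 15 promoters that overlap a region. These shares were not tested.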

How the data were processed

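ATAC-seq of 4 PB3 lines gave 8 libraries, grouped by the line that the labels name. The deposited table holds a raw count per consensus region and library, with no normalization. The deposited region and peak lists hold other values, starts and ends. The submitters' processing notes list Bowtie2 2.2.6 and MACS2 2.1.1, along with cutadapt 1.9.1, bcl2fastq 2.20.0.422, Picard, deepTools and featureCounts, on GRCm38 (mm10). Of their settings, the sources used here give neither whether reads or fragments were counted nor whether cut positions were shifted, which could move counts between neighbouring regions.

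Regions, gene loci and 5 Mb windows of all chromosomes were tested with edgeR 4.0.16 (R 4.3.3). The settings were filterByExpr by line, TMM factors from the table tested and a quasi-likelihood model with 1 coefficient for each line, over the 8 libraries together. The threshold was a Benjamini-Hochberg adjusted p under 0.05 over all features. The filter kept 57415 regions, 14936 loci and 536 windows. The common biological coefficient of variation of regions was 0.161, with 4 residual and 9.91 prior degrees of freedom. TMM factors of regions were 0.8023 and 0.8584 in PB3-ERI-R and 1.036 to 1.09 elsewhere. A pseudocount of 0.5 CPM was used for shifts of single libraries and the replicate check. The scripts were tested on simulated data.

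Each region took the closest protein-coding gene of RefSeq (21896 genes, GRCm38.p6) that held it or lay within 50 kb, which placed 48270 regions. The annotation gave chromosome, start and end, and no exons were used. Promoter sequences are RefSeq's. Of 190 list entries 186 lay on chromosome 15 and 156 were measured.

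Named regions were the 5 higher and 5 lower per line with the largest fold change, 1 per gene, among those near a gene that kept 1 sign over the 4 pairings and whose average log2 CPM was 2 or more (for PB3-ERI-R also past the threshold). Up to 3 loci per list with the smallest adjusted p, and Myc, Krt5, Krt8 and Krt18, were named. For windows, the 3 highest and 3 lowest were named. The members, lists and rules were chosen with earlier results of these data known. Alternatives were other scalings, filters, DESeq2 1.42.0, the replicate number as a block, leaving out each library, other window sizes and classes of regions. Sequences of the regions themselves were not analysed here.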

Additional observations from a re-analysis of the deposited data

Results flagged for a closer look

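The resistant lines lay on both sides of PB3-Parental on chromosome 15. The share of autosomal counts on it was lower than in the parental line by 0.34 percentage points in PB3-ERI-R (a difference of -0.34), and higher in the other lines, by 0.77 (PB3-PAC-R) and 0.38 (PB3-VIN-R). Every library of PB3-ERI-R lay below both parental libraries and every library of the other lines above them. The side of PB3-PAC-R and PB3-VIN-R follows from how the chromosome was chosen. In PB3-ERI-R the median region log2 fold change was 0.00, within the -0.37 to 0.56 of the other autosomes, whose count shares are not given here. The difference between the lines was not tested here or for any of the values below.

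Of the 39 named loci, 13 had both PB3-PAC-R libraries and 12 both PB3-VIN-R libraries on the opposite side of the parental line from PB3-ERI-R. Over all 14936 tested loci the shares were 13.9% and 12.3%, and over the 620 of chromosome 15 they were 24.4% and 17.4%. Since 91.9% and 82.1% of the chromosome's loci lay above 0 in these lines, on which the chromosome was chosen, a locus lower in PB3-ERI-R was likely to be opposite, and nothing is read from the counts. Lower in PB3-ERI-R and higher elsewhere was the cadherin locus Cdh6, with log2 fold changes of 0.71 (PB3-PAC-R) and 0.88 (PB3-VIN-R). The kinesin locus Kif21a had 0.32 and 0.44 in these lines. Adcy8 had 0.30 and 0.18, Eif3h 0.29 and 0.26, and Racgap1 0.31 and 0.21. For the secreted factors, Igfbp6 had 0.49 and 0.19 and Ccn3 0.30 and 0.29. For the RNA-binding genes, Pabpc1 had 0.23 and 0.22 and Eif3l 0.30 and 0.18.

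In PB3-PAC-R alone the same was seen at Tuba1b (0.24), Ly6a (0.37), Trps1 (0.15) and Zfpm2 (0.22). In PB3-VIN-R alone it was seen at Dbx2 (0.35). At Lifr and Bik the directions were turned, since PB3-ERI-R was higher and PB3-VIN-R lower, with log2 fold changes of -0.55 and -0.71.

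By 5 Mb window, summed counts put PB3-ERI-R below the parental line and PB3-PAC-R above it in 11 windows, 9 of them with PB3-VIN-R above as well. Over all 536 windows PB3-PAC-R was opposite to PB3-ERI-R in 14.9% and PB3-VIN-R in 13.1%. The side of PB3-ERI-R depended on scaling. With the TMM factors computed from regions, the opposite windows of chromosome 15 numbered 4 (PB3-PAC-R, 19%) and 3 (PB3-VIN-R, 14.3%). Under these factors the shares of all windows were 21.8% and 9.51%. Since the chromosome was chosen because PB3-PAC-R and PB3-VIN-R stood high on it, nothing is read from the counts of opposite windows. At 75 to 80 Mb and 95 to 100 Mb the PB3-ERI-R median over regions was above 0 (0.14 and 0.06), unlike the summed counts. PB3-PAC-R and PB3-VIN-R had log2 fold changes of 0.28 and 0.22 at 15 to 20 Mb, 0.19 and 0.07 at 25 to 30 Mb and 0.24 and 0.08 at 30 to 35 Mb. They had 0.27 and 0.17 at 40 to 45 Mb, 0.40 and 0.26 at 45 to 50 Mb and 0.17 and 0.08 at 65 to 70 Mb. Farther along they had 0.22 and 0.11 at 70 to 75 Mb, 0.24 and 0.13 at 75 to 80 Mb and 0.27 and 0.15 at 95 to 100 Mb. At 20 to 25 Mb and 60 to 65 Mb PB3-PAC-R alone was opposite, with 0.25 and 0.18.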

How the results depend on the processing

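With 2 libraries a line, depth limits calls at places with few counts, and leaving out 1 library leaves a lone sample that is assumed to vary like the other lines. The PB3-PAC-R shift of 0.24 ran from 0.15 to 0.32 when a library was left out and the PB3-VIN-R shift of 0.13 from 0.11 to 0.15, with no change of sign in the alternatives run. The small PB3-ERI-R shift of -0.06 was -0.03 when regions needed an average log2 CPM of 2 or more, -0.04 within 1 kb of a gene end and -0.12 from summed counts, and ran from -0.09 to -0.03 when a library was left out.

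Calls in PB3-PAC-R were 5, and 41 with the replicate block, 9 with the DESeq2 test and 0 in a fit without the PB3-ERI-R libraries, an alternative chosen after seeing the data. They ran from 0 to 6 when a library was left out, with 0 without either PB3-ERI-R library and 2 without PB3-Parental replicate 2 or PB3-PAC-R replicate 2, and 3 without PB3-PAC-R replicate 1 or either PB3-VIN-R library. Calls in PB3-VIN-R were 17, and 10 with that abundance minimum, 141 with the replicate block, 29 with the DESeq2 test and 7 without the PB3-ERI-R libraries. They ran from 1 to 47, with 47 without PB3-Parental replicate 1, 6 without PB3-Parental replicate 2, 7 without either PB3-ERI-R library, 31 without PB3-PAC-R replicate 2, and 5 and 1 without PB3-VIN-R replicates 1 and 2. Nothing is read from these calls, since the chromosome was chosen on these lines. The cause was not tested.

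Replicate numbers pair libraries only by number. Their deviations correlated between lines at 0.105 to 0.501. Pairs that include PB3-ERI-R had 0.105, 0.173 and 0.223, and the remaining pairs 0.425, 0.449 and 0.501. The main fit has no term for the replicate number, so deviations that lines share count there as spread between libraries. Whether equal numbers mark a shared batch was not tested. The block moved the Myc locus past the threshold (-0.29, edgeR adjusted p = 0.00824), as did no scaling factor (-0.38, edgeR adjusted p = 0.0126). Without PB3-Parental replicate 2 the Myc value was -0.46. The TMM factors of the region table went the other way and raised the 39 named loci, Myc among them, by 0.27 to 0.29.

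In PB3-ERI-R, windows of 2 Mb gave 11 higher and 21 lower and windows of 10 Mb 2 higher and 4 lower. The TMM factors of the region table, also chosen after seeing the data, gave 12 and 4 windows, and 237 loci higher. Signs turned at Krt18 (from -0.46 without PB3-Parental replicate 2 to 0.05 without PB3-Parental replicate 1, 0.09 with regions inside the gene, 0.05 with the region factors), Krt8 (-0.10 without PB3-Parental replicate 2, 0.56 without PB3-Parental replicate 1), Hoxc8 (0.05 without PB3-Parental replicate 2, -0.31 without PB3-Parental replicate 1, 0.14 with the region factors) and Tuba1b (0.01 with regions inside the gene). Of 653 values for 39 loci under alternatives, 627 kept their direction and side of the threshold, 16 lost the call, 3 gained it and 7 changed sign. Racgap1, Hdac7, Rrm2b, Irak4, Eif3l, Pabpc1 and Tuba1b were those that lost it.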
